A study of Mus musculus with 21 samples.

Results

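The genes described here are 50 mouse genes that act in mitosis, taken as a list of symbols and followed through 6 cell lines. Of the 50, 48 had at least 1 probe on the array, among 19057 genes with a probe, and 42 were tested among 10449 genes. No probe was annotated to Ccnb1, the main mitotic cyclin, or to Mki67, the Ki-67 protein of dividing cells. A further 6 genes with a probe (Ccnb2, Bub1, Kif20a, Hmmr, Cenpe and Racgap1) were well above background on 0 of 21 arrays and were not tested. Signal on an array was called well above background where the detection p-value, which sets the probe against the negative control beads, was under 0.01.

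The study asked whether fibroblasts can be converted directly into neural stem cells that keep expanding, and profiled RNA from 6 mouse lines on 21 Illumina bead arrays, which read the brightness of a labelled copy of each RNA. The converted cells were 3 clones of induced neural stem cells, with 3 arrays of iNS2 and 4 arrays each of iNS3 and iNS5, each a single clone derived from the fibroblasts below. NS (3 arrays) were control neural stem cells from mouse forebrain, labelled as primary cells. ES (3 arrays) were control embryonic stem cells, whose source label repeats that of the fibroblasts, and MEF (4 arrays) were mouse embryonic fibroblasts with the Oct4-GiP reporter (Oct4-GFP in the sample titles), a green fluorescent protein and drug resistance cassette under control of the Oct4 gene. The labels give no age, treatment or culture medium. The arrays of a line are technical replicates, so p-values between lines measure only the spread between arrays of the same RNA source, and only the 3 clones taken as a group cover separately derived lines.

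Mitosis separates the copied chromosomes into daughter cells. Cyclin-dependent kinase and the Polo and Aurora kinases start it, condensin compacts the chromosomes, and kinesin motors build the spindle. The kinetochore couples each centromere to spindle fibres, and the spindle checkpoint delays separation until all are attached. The anaphase-promoting complex then destroys securin and mitotic cyclins, separase opens the cohesin rings, and a contractile ring divides the cell. Many of these genes are repressed in resting cells by the DREAM complex and switched on late in the cycle by B-Myb with MuvB and by FoxM1. Their promoters often hold a cell cycle homology region (CHR), read by MuvB, near the start, with CCAAT boxes, bound by NF-Y, upstream. In the brain such genes mark dividing progenitors.

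The promoters of 6 members are printed to show this arrangement. They are the members of largest difference between NS and MEF whose promoter, in the set used here, held a CHR. Aurkb and Cdc25c, also among the largest differences, had no promoter in that set and were not searched. Each run is 300 bases, 250 before and 50 after the annotated start, read 5′ to 3′ on the strand of the gene, from RefSeq on build GRCm38.p6. Capitals mark CHR (TTTGAA, or the variant TTCGAA) and CCAAT on either strand.
Ncapd2, chr6:125191537-125191836, minus strand: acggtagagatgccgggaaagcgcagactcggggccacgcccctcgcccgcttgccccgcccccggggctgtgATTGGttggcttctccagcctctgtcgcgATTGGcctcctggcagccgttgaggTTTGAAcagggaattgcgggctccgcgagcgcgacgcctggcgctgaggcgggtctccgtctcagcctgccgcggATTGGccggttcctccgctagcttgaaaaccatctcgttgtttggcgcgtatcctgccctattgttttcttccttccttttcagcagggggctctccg
Cdca8, chr4:124936868-124937167, minus strand: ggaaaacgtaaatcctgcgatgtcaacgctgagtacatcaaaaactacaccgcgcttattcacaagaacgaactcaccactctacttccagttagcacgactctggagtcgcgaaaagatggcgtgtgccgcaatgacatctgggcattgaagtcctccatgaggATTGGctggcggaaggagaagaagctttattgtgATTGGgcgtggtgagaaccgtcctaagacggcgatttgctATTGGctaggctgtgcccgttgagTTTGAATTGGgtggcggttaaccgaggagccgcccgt
Top2a, chr11:99024140-99024439, minus strand: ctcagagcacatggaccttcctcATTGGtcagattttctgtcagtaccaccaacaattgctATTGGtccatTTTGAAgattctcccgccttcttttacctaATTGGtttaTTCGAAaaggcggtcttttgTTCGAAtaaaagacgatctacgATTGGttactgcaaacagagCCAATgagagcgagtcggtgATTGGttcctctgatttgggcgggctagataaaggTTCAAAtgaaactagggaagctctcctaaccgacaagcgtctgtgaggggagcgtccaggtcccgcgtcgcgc
Bub1b, chr2:118597961-118598260, plus strand: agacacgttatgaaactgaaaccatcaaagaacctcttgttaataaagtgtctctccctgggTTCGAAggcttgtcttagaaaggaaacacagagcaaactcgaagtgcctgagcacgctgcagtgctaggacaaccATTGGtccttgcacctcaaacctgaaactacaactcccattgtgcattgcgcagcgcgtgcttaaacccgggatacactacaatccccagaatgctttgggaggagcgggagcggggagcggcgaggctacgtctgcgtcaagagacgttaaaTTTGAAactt
Kif11, chr19:37376132-37376431, plus strand: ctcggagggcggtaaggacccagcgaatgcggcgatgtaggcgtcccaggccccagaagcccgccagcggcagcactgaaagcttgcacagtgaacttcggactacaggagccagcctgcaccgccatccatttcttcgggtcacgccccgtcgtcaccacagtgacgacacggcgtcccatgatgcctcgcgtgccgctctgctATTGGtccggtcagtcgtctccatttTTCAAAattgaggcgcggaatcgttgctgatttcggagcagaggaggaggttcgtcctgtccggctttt
Espl1, chr15:102296043-102296342, plus strand: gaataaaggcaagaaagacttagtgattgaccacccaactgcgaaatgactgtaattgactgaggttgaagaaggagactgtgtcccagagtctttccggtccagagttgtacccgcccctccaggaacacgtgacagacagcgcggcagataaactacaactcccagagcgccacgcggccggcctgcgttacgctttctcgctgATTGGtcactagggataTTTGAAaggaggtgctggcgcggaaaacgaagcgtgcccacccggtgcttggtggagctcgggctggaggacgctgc
In Kif11, a spindle motor, the CHR began 19 bases before the start and the CCAAT 45 bases before it. In Espl1, the separase gene, these distances were 27 and 44 bases. In Cdca8, of the chromosomal passenger complex, the CHR began 14 bases past the start and overlapped the CCAAT at 19, and 3 more CCAAT lay 85, 51 and 11 bases before the start. Top2a, topoisomerase II alpha, held 4 CHR matches, the nearest 23 bases before the start, and 6 CCAAT. Ncapd2, a condensin subunit, held its only CHR 123 bases before the start, and Bub1b, a checkpoint gene, held CHR matches 188 bases before and 41 past the start.

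The set of RefSeq promoters used here had no entry for Ccna2, Cdc25c, Foxm1, Aurkb, Incenp, Kif20a, Tpx2, Spc24 and Smc4. For the other 41 of the 50 genes it held 44 promoters. A CHR of either form stood in 36 of them (81.8%), against 6316 of 32851 mouse promoters (19.2%), and CCAAT in 35 (79.5%), against 37.4% of all promoters. Both stood in 33 of the 44 (75%), against 7.52% of all. A CHR beginning within 50 bases of the start was present in 32 (72.7%), against 5.31% of all. Counted by gene, a CHR of either form stood in 33 of 41 (80.5%), against 21.7% of all genes with a promoter. No CHR was found in these windows for Ccnb1, Mad2l1, Pttg1, Birc5, Nusap1, Cenpe, Nuf2 and Ncaph. These matches describe letters in a window and carry no measurement of binding.

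Between 14407 and 16021 probes were well above background per array, scanner medians lay between 127 and 168.5, and arrays of a line correlated at 0.9927 to 0.9966. Of 4 slides, the first carried 3 MEF arrays, the second every iNS2 array beside 3 of iNS3, and the third every ES array beside 3 of iNS5. Slide 4 carried the NS arrays and 1 array each of iNS3, iNS5 and MEF. Of 8 fibroblast markers, 7 were well above background on every MEF array and 0 on any clone or NS array, while ES had 1, Thy1, on every array. Of 5 neural stem cell markers with a probe, 4 (Sox2, Nes, Fabp7 and Olig2) were present on every array of each clone and of NS, and Prom1 on none. Sox2 and Nes were also present on every ES array, and Nes on every MEF array. All 6 ES cell markers, Pou5f1 and Nanog among them, were present on every ES array, so the ES arrays carried the markers of their label. Esrrb was also present on every NS, iNS2 and iNS3 array, with line means up to 6.71, against 13.34 in ES. Dppa5a was present on every NS and iNS5 array, with means of 5.51 and 5.67, against 14.97 in ES.

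The comparison with MEF asks how far the mitosis genes of converted and control stem cells lay above those of the starting fibroblasts. They were higher in every stem cell line. On the log2 intensity scale, the median over the 42 tested members per array lay between 10.09 and 10.15 in iNS2, 10.09 and 10.16 in iNS3, 9.70 and 9.74 in iNS5, 9.96 and 9.97 in NS, 10.08 and 10.14 in ES, and 6.85 and 7.11 in MEF. For 42 of the 42, all 4 MEF arrays lay below each of the other 17 arrays, which held for 21.6% of all genes tested. The filter asks for signal in some line and so favours members that are low in MEF. Of the 29 members well above background on every MEF array, 29 had that separation, against 21.2% of the 8235 genes with such MEF signal. In bulk RNA of this kind, fewer dividing cells and less RNA per dividing cell cannot be told apart.

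**Figure D1:**
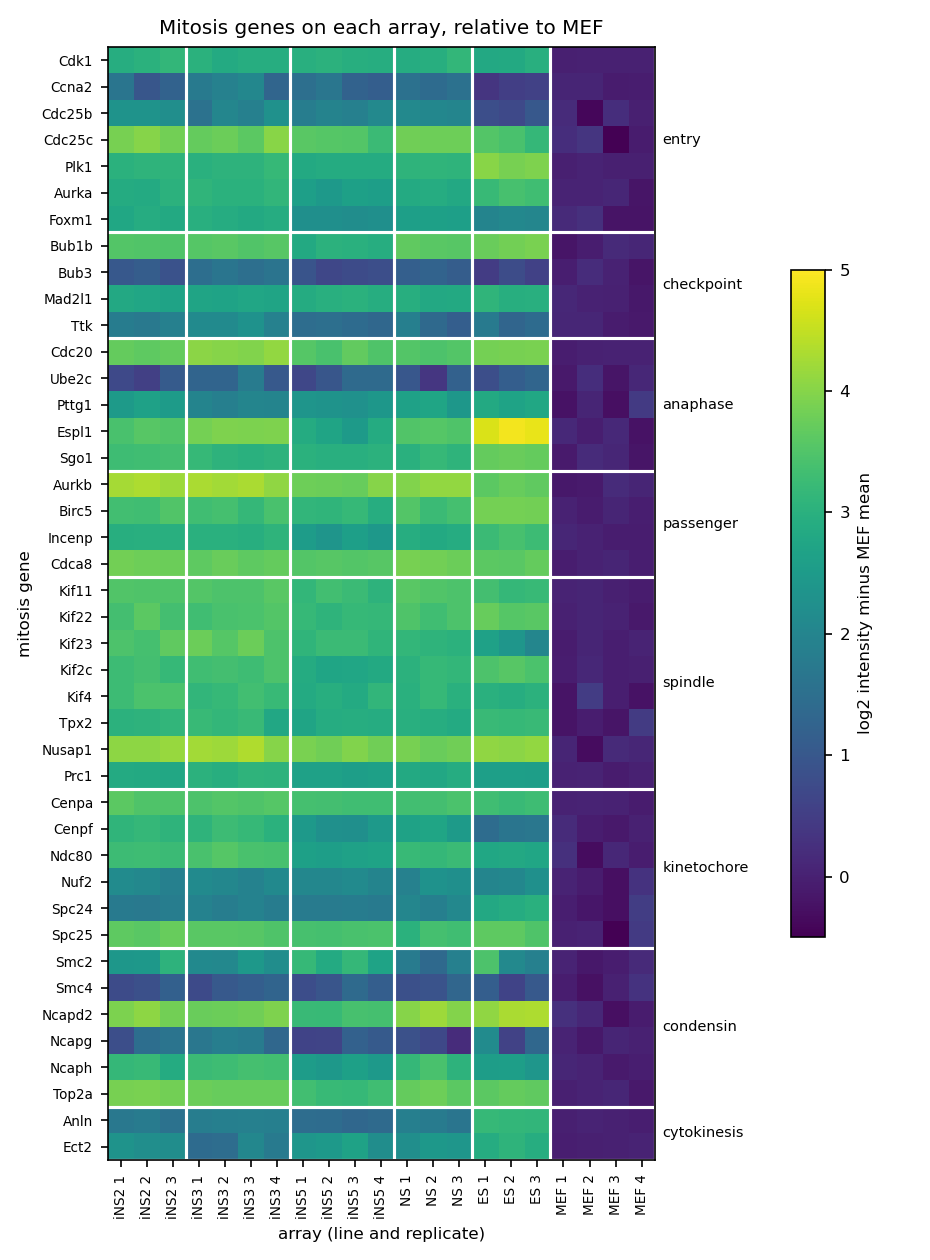
Log2 intensity of each of the 42 tested mitosis genes (down the page, by role) on each of the 21 arrays (across, by line), minus the mean of the 4 MEF arrays. The MEF columns are dark throughout, and Espl1 in ES is the brightest block, at least 24.3-fold above MEF, where the probe had no signal.

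Differences between lines were tested in limma against a 2-fold change, with p-values adjusted over all 10449 genes by the Benjamini-Hochberg method, and a gene passed where the adjusted p was under 0.05. Against MEF, the members that passed were all higher: 37 of 42 in iNS2, where 17.3% of all genes passed as higher, 40 in iNS3 (17.6%), 38 in iNS5 (17.9%), 38 in NS (16.5%) and 36 in ES (22%). Among the 29 members with signal on every MEF array, 28 passed in iNS2, 29 in iNS3, 28 in iNS5, 28 in NS (13.1% of genes with such signal) and 28 in ES (16.6%). With no filter, 38 of 48 passed in NS and 36 of 48 in ES, and 0 were lower. The median log2 difference of the 42 was 3.08 in iNS2, 3.08 in iNS3, 2.83 in iNS5, 3.03 in NS and 3.08 in ES, against medians of all genes between 0.04 and 0.08. With the 13 members that lacked signal on some or all MEF arrays set at the lowest measurable MEF level, these medians were 3.06, 3.07, 2.72, 3.03 and 3.03. For 6 members (Anln, Cdk1, Cenpf, Kif23, Nusap1 and Smc4) the probes of the gene did not all give the same call in NS, and the values here are those of the brightest probe. The 5 comparisons share the MEF arrays, so their likeness is not separate evidence.

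**Figure D2:**
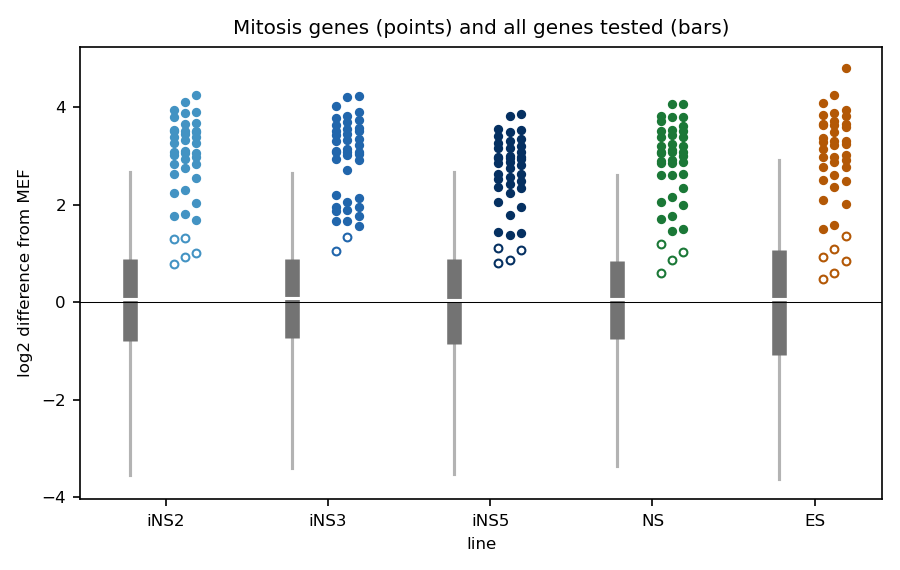
Log2 difference from MEF of each mitosis gene (points) and of all 10449 genes tested (bars) in each line. Filled points passed the 2-fold test and open points did not, the thin bar leaves out the lowest and the highest 5% of all genes, the thick bar spans the quartiles, and the white line is their median. The members' medians, 2.83 to 3.08, lie above the thick bars of all genes in each line.

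For the clones as a group, each line was reduced to its mean profile and the 3 clones were tested against no change with 2 residual degrees of freedom, the single MEF profile being assumed to vary like the clones. This test found 41 of 42 members higher than MEF and 0 lower, where 23.8% of all genes passed as higher, with a median of 2.99. The member that did not pass was Bub3, a checkpoint protein, at 1.12 ± 0.35 (log2 ± SE, adjusted p = 0.062). Without iNS2 the count was 36, and without iNS3 it was 42. On slide 4, which held arrays of 4 lines, the 2-fold test gave 37 of 42 higher for NS, 36 for iNS3 and 36 for iNS5 against the single MEF array there, with lone arrays assumed to vary like the others. ES and iNS2 shared no slide with MEF. With slide as a fixed block, which links them to MEF through lines on several slides, 35 passed in each.

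The regulators that start mitosis stood well above MEF. Cdk1, the kinase at its centre, measured 11.78, 11.86 and 11.98 on the iNS2 arrays, 11.85, 11.72, 11.77 and 11.77 on the iNS3 arrays and 11.82, 11.89, 11.80 and 11.77 on those of iNS5. It measured 11.76, 11.80 and 11.99 in NS, 11.67, 11.69 and 11.81 in ES and 8.84, 8.85, 8.86 and 8.85 in MEF. The 5 stem cell lines thus lay close together for Cdk1, and MEF lay 8.02-fold below NS (log2 difference 3.003 ± 0.06, adjusted p = 1.9e-16). The other passing Cdk1 probes had signal on 0 of 4 MEF arrays and on 0 and 1 of 3 NS arrays, so they give no measured difference. Plk1, the Polo kinase, measured 11.28, 11.35 and 11.35 on the iNS2 arrays, 11.26, 11.33, 11.33 and 11.44 on the iNS3 arrays and 11.10, 11.16, 11.15 and 11.15 on those of iNS5. It measured 11.34, 11.37 and 11.34 in NS, 12.29, 12.14 and 12.20 in ES and 8.25, 8.31, 8.26 and 8.24 in MEF. Its ES arrays were the highest and its MEF arrays the lowest, and no array of either overlapped another line. Plk1 was 8.47-fold higher in NS than in MEF and 15.4-fold higher in ES than in MEF (adjusted p = 3.2e-18 and 1.2e-20).

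Of the 7 entry regulators tested, 7 passed in NS, with a median log2 difference of 2.86, and 5 in ES, with a median of 2.88. The clones as a group gave 7 of 7, with a median of 2.86. The largest difference in NS and the clones was that of Cdc25c, a phosphatase that activates Cdk1, at 3.72 ± 0.23 in the clones and 3.79 ± 0.15 in NS, with signal on 1 of 4 MEF arrays. Aurka, the Aurora kinase of the spindle poles, was 7.25-fold higher in NS, and Foxm1, the transcription factor of mitotic genes, 6.11-fold. Ccna2, cyclin A2, was dim throughout. It measured 6.11, 5.45 and 5.70 on the iNS2 arrays, 6.24, 6.39, 6.51 and 5.76 on the iNS3 arrays and 5.98, 6.12, 5.70 and 5.61 on those of iNS5. It measured 6.02, 5.89 and 6.02 in NS, 4.81, 4.99 and 5.03 in ES and 4.53, 4.53, 4.40 and 4.41 in MEF. The ES and MEF arrays had no signal of Ccna2 above background, and iNS2 had it on 2 of 3 arrays. Ccna2 was at least 1.33-fold higher in NS than in MEF. Its 2-fold test passed (adjusted p = 0.0089) on MEF values not well above background, so a 2-fold difference was not measured. Ccna2 did not pass in iNS2, at 1.29 ± 0.16 (adjusted p = 0.12), or in ES, where neither line had signal. Cdc25b had signal on every stem cell array and on no MEF array. It exceeded MEF at least 2.6-fold in NS, and its ES difference of 0.85 ± 0.14 did not pass. Such a bound sets the dimmer line at the lowest signal measurable on its arrays.

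The spindle checkpoint holds back chromosome separation. Bub1b, which encodes the checkpoint protein BubR1, measured 11.21, 11.20 and 11.19 on the iNS2 arrays, 11.25, 11.28, 11.20 and 11.26 on the iNS3 arrays and 10.55, 10.72, 10.68 and 10.62 on those of iNS5. It measured 11.35, 11.29 and 11.27 in NS, 11.43, 11.53 and 11.60 in ES and 7.50, 7.64, 7.85 and 7.79 in MEF. The iNS5 arrays lay below those of the other stem cell lines without overlap, and far above MEF. The NS level was 12.2-fold that of MEF (adjusted p = 1.8e-17), the largest difference of this role. Of 4 checkpoint genes, 3 passed in NS (median 2.17), 3 in ES (median 2.25) and 3 in the clones (median 2.30). Mad2l1, which binds and blocks Cdc20, was 7.31-fold higher in NS, and Ttk, the checkpoint kinase Mps1, at least 1.39-fold. Bub3, the partner of Bub1 and BubR1, differed least: 1.01 ± 0.09 in iNS2, 0.80 ± 0.08 in iNS5, 1.18 ± 0.09 in NS and 0.61 ± 0.09 in ES, none of which passed. It passed in iNS3, at 1.56 ± 0.08 (adjusted p = 3.9e-06).

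The anaphase genes differed among themselves, with separase far above MEF and smaller differences for Ube2c, whose probe was dim in every line. Espl1 measured 8.78, 8.94 and 8.87 on the iNS2 arrays, 9.21, 9.30, 9.27 and 9.30 on the iNS3 arrays and 8.25, 8.08, 7.86 and 8.24 on those of iNS5. It measured 8.87, 8.91 and 8.86 in NS, 10.05, 10.27 and 10.19 in ES and 5.51, 5.33, 5.50 and 5.13 in MEF. MEF had no Espl1 signal above background, iNS5 was the lowest stem cell line and ES the highest, each without overlap. Against MEF, Espl1 was higher by at least 9.07-fold in the clones, at least 9.93-fold in NS and at least 24.3-fold in ES. Cdc20, which activates the anaphase-promoting complex, was 11.4-fold higher in NS and 14.6-fold in ES. Sgo1, which guards centromeric cohesin, was 8.49-fold higher in NS and 13.1-fold in ES. Pttg1, securin, the inhibitor of separase, was at least 3.56-fold higher in NS. Of the 5 genes, 4 passed in NS (median 3.09), 4 in ES (median 3.71) and 5 in the clones (median 3.13). Ube2c, the ubiquitin-conjugating enzyme of the complex, passed in no single line. Its differences were 0.78 ± 0.22 in iNS2, 1.34 ± 0.20 in iNS3, 1.11 ± 0.20 in iNS5, 0.86 ± 0.22 in NS and 1.09 ± 0.22 in ES. Its probe had signal on 8 of 11 clone arrays, 2 of 3 NS arrays and 0 of 4 MEF arrays.

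The chromosomal passenger complex, whose kinase corrects faulty attachments and guides cytokinesis, gave the highest median of any role in NS. Aurkb, that kinase, measured 10.64, 10.70 and 10.57 on the iNS2 arrays, 10.69, 10.62, 10.70 and 10.47 on the iNS3 arrays and 10.17, 10.15, 10.10 and 10.38 on those of iNS5. It measured 10.35, 10.50 and 10.50 in NS, 9.996, 10.11 and 10.04 in ES and 6.25, 6.29, 6.56 and 6.45 in MEF. MEF was lowest by over 3 log2 units, and among the stem cell lines ES had the lowest mean and overlapped iNS5. Aurkb was 16.7-fold higher in NS than in MEF (adjusted p = 1.8e-17). All 4 subunits passed in NS (median 3.60), in ES (median 3.65) and in the clones (median 3.47). Cdca8, borealin, was 14.1-fold higher in NS, Birc5, survivin, 10.4-fold, and Incenp, the scaffold, 7.4-fold. In ES the largest difference was that of Birc5, at 3.84, and the smallest that of Incenp, at 3.31.

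Of the 8 kinesins and spindle factors tested, 8 passed in NS (median 3.10), 8 in ES (median 3.23) and 8 in the clones (median 3.26). Nusap1, a microtubule-bundling protein, measured 11.78, 11.78 and 11.86 on the iNS2 arrays, 11.95, 11.91, 12.05 and 11.72 on the iNS3 arrays and 11.59, 11.51, 11.68 and 11.52 on those of iNS5. It measured 11.57, 11.45 and 11.52 in NS, 11.79, 11.75 and 11.82 in ES and 7.78, 7.39, 7.87 and 7.81 in MEF. The stem cell lines lay within 1 log2 unit of each other, and Nusap1 was 14-fold higher in NS and 16.9-fold higher in ES than in MEF. Kif11, the motor that pushes spindle poles apart, was 11.5-fold higher in NS, Kif22, a motor that pushes chromosome arms outward, 10.7-fold, and Kif2c, which takes microtubules apart at centromeres, 8.68-fold. Kif4, a midzone motor, was 8.32-fold higher in NS and Tpx2, the activator of Aurora A, 7.58-fold. Prc1, which crosslinks the midzone, gave the smallest difference of the role in NS, at 2.85 ± 0.05, or 7.22-fold. In ES the smallest was that of Kif23, a midzone motor, at 2.35, and 1 of its other probes was lower in NS than in MEF, at -2.10.

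Of the 6 centromere and kinetochore genes tested, 6 passed in NS (median 2.92), 6 in ES (median 2.84) and 6 in the clones (median 2.99). Cenpa, the histone that marks centromeres, was 10.4-fold higher in NS. The 4 genes of the NDC80 complex, which grips microtubules, all passed in NS. Spc25 measured 10.10, 10.06 and 10.20 on the iNS2 arrays, 10.06, 10.07, 10.04 and 9.97 on the iNS3 arrays and 9.87, 9.85, 9.90 and 9.92 on those of iNS5. It measured 9.49, 9.84 and 9.80 in NS, 10.12, 10.10 and 9.96 in ES and 6.48, 6.53, 5.97 and 6.92 in MEF. The MEF arrays of Spc25 differed more among themselves than those of the stem cell lines, and lay below all of them. In NS, Spc25 was 9.42-fold higher than in MEF, Ndc80 9.22-fold, Spc24 3.99-fold and Nuf2 at least 2.85-fold. Cenpf, an outer kinetochore protein, exceeded MEF at least 3.61-fold in the clones, at least 3.07-fold in NS and at least 1.48-fold in ES. In the clones the role ran from 1.81 for Spc24 to 3.54 for Spc25, and in ES the largest was Spc25, at 3.59.

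Condensin and topoisomerase II shape the mitotic chromosome. Ncapd2 measured 10.79, 10.95 and 10.70 on the iNS2 arrays, 10.62, 10.65, 10.69 and 10.82 on the iNS3 arrays and 10.10, 10.08, 10.28 and 10.25 on those of iNS5. It measured 10.87, 11.06 and 10.86 in NS, 10.97, 11.18 and 11.20 in ES and 7.13, 6.99, 6.59 and 6.79 in MEF. The iNS5 arrays lay below the other stem cell lines, and MEF below all. Ncapd2 was 16.6-fold higher in NS and 18.9-fold in ES than in MEF (adjusted p = 9e-16 and 2.7e-16). Top2a was 13-fold higher in NS and Ncaph, the condensin kleisin, 9.24-fold. Of 6 genes, 4 passed in NS (median 2.45), 4 in ES (median 2.50) and 6 in the clones (median 2.79). For the 2 ATPase subunits of condensin, Smc2 had signal on 0 of 4 MEF arrays and the brightest Smc4 probe on 1 of 4. Their differences thus cannot be ranked against those of Ncapd2 and Top2a. Smc2 was at least 1.7-fold higher in NS (adjusted p = 0.026), and the brightest Smc4 probe differed by 1.02 ± 0.18 in NS and 0.93 ± 0.18 in ES, which did not pass. Both other passing Smc4 probes, without signal on any MEF array, passed in ES, and 1 of them passed in NS. Nor did the brightest probe pass in iNS2, iNS3 or iNS5, at 0.93, 1.04 and 1.07. For Ncapg, a further condensin subunit, the probe used had signal on 0 of 3 NS arrays, 2 of 3 ES arrays and 8 of 11 clone arrays. It passed in iNS3 and in the clones as a group. Its differences of 1.31 in iNS2, 0.87 in iNS5 and 1.36 in ES did not pass. Another Ncapg probe averaged 5.52 in NS, where the probe used averaged 5.05, and 4.65 in ES.

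Both cytokinesis genes passed in NS (median 2.06), ES (median 3.06) and the clones (median 1.89). Anln, anillin of the contractile ring, measured 11.22, 11.32 and 11.10 on the iNS2 arrays, 11.36, 11.41, 11.41 and 11.40 on the iNS3 arrays and 10.99, 10.97, 10.87 and 10.92 on those of iNS5. It measured 11.40, 11.32 and 11.16 in NS, 12.71, 12.67 and 12.65 in ES and 9.50, 9.58, 9.53 and 9.49 in MEF. MEF kept clear Anln signal, and ES lay above every other line. Anln was 3.15-fold higher in the clones, 3.41-fold in NS and 8.86-fold in ES than in MEF. Ect2, the exchange factor that activates RhoA at the cell equator, exceeded MEF at least 2.25-fold in NS and at least 3.44-fold in ES. With the median over the 2 passing probes of Anln in place of the brighter probe, its NS difference was 1.08 and did not pass.

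**Figure D3:**
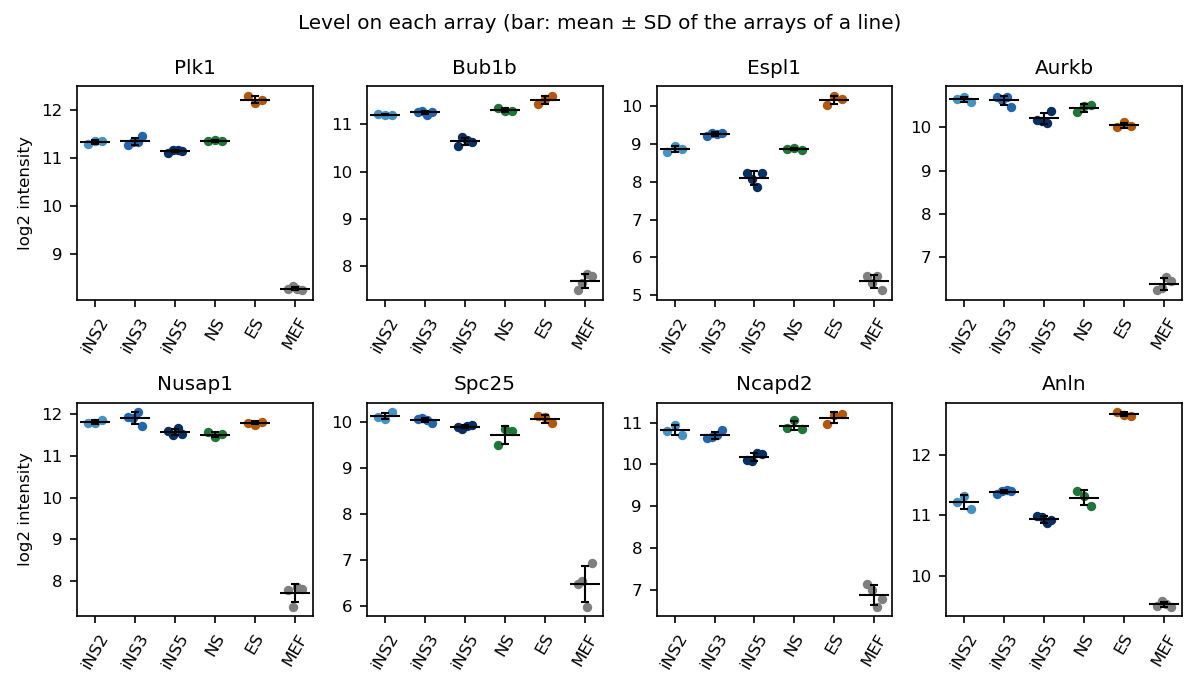
Log2 intensity of 8 mitosis genes, the member of each role with the widest range of line means, on each array (points), with the mean and SD of the arrays of a line (bars). Each vertical axis covers its own gene and does not start at 0. MEF is lowest in each panel, and ES stands above the other lines for Plk1, Bub1b, Espl1 and Anln.

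The same comparison was made for 115 other genes of mitosis in 6 lists, of which 110 had a probe and 87 were tested. In NS, 51 of the 87 were higher than MEF and 0 lower, with a median log2 difference of 1.60, where 16.5% of all genes passed as higher. In ES, 58 were higher and 2 lower (Anapc16 and Cenpb), and in iNS5, 51 were higher and 1 lower, E2f4, at -1.70 ± 0.11. The counts by list that follow are for NS. The other spindle kinases, kinesins and factors gave 20 of 25 (median 2.74), among them Pbk, a mitotic kinase (15.3-fold), and Troap, a spindle protein (14.5-fold). The constitutive centromere, Mis12 and RZZ genes gave 17 of 22 (median 2.35), and condensin II 3 of 3. Cohesin and its regulators gave 5 of 11, led by Esco2, an acetyltransferase of cohesin (3.58, signal on 3 of 4 MEF arrays), and Cdca5, sororin (2.84). Subunits and regulators of the anaphase-promoting complex gave 2 of 11 (median 0.16), a share near that of all genes, namely Anapc15 (2.59, signal on 2 of 4 MEF arrays) and Fzr1 (1.39). The regulators of mitotic promoters, DREAM, MuvB, E2F and NF-Y genes, gave 4 of 15: Mybl2, which encodes B-Myb, at 8.77-fold, E2f2 at least 5.2-fold, Rbl1 at 2.61 and E2f5 at 2.25 on the log2 scale. E2f4, the E2F of the repressive complex, was -1.09 ± 0.12 in NS and did not pass (adjusted p = 0.6).

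**Figure D4:**
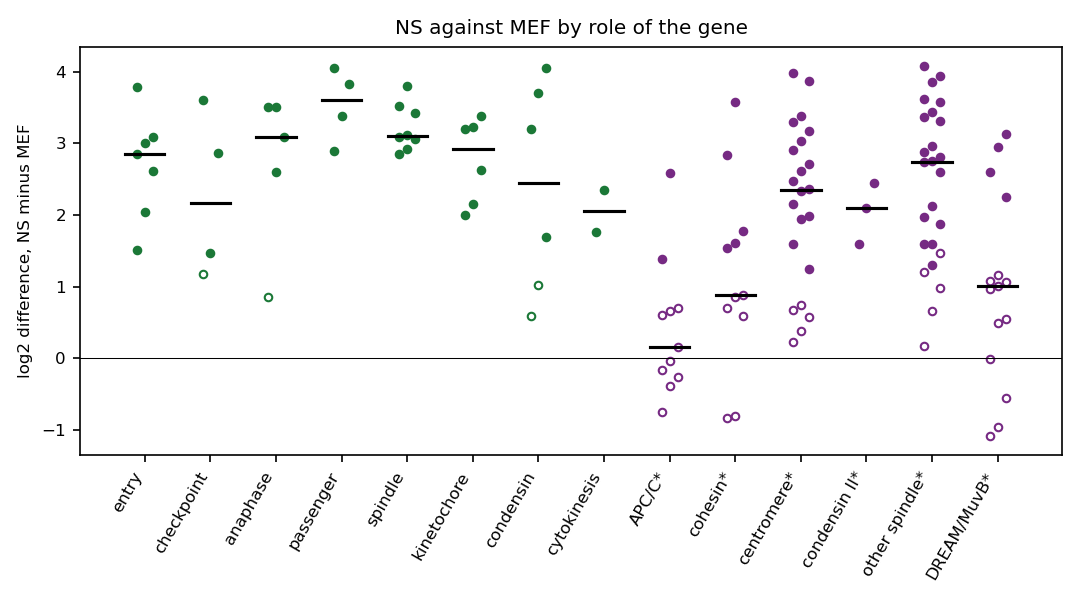
Log2 difference of NS from MEF for each tested gene by role, with the roles of the 42 mitosis genes on the left and the 6 other mitotic lists on the right (asterisks). Filled points passed the 2-fold test, open points did not, and black lines are medians. The medians of the mitosis genes lie between 2.06 and 3.60, and those of the other lists between 0.16 and 2.74.

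Few of these genes differed past 2-fold between neural and embryonic stem cells. NS against ES gave 0 of 42 higher and 2 lower under the 2-fold test, where 16.6% of all genes passed as higher and 15.2% as lower. Anln fell by 1.38 ± 0.07 on the log2 scale in NS (ES 2.6-fold higher, adjusted p = 3.6e-05), and Espl1 fell by 1.29 ± 0.10 (ES 2.45-fold higher, adjusted p = 0.016). Espl1 did not pass without ES replicate 2, with median scaling or in the authors' scaled table. Differences that did not pass include Cdc25b, another Cdk1 phosphatase, at 1.20 ± 0.15 (adjusted p = 0.28), Cenpf at 1.05 ± 0.09, Spc24 at -0.91 ± 0.13 and Plk1 at -0.86 ± 0.05. Tested against no change instead, 13 members were higher and 17 lower in NS, where 39.4% of all genes were higher and 41.4% lower. NS and ES shared no slide, and with slide as a fixed block the 2-fold count was 2.

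The clones as a group differed from ES in 6 of 42 members, 3 higher and 3 lower, where 21.5% of all genes were higher and 22.5% lower. Cdc25b measured 7.23, 7.22 and 7.12 on the iNS2 arrays, 6.47, 6.93, 6.80 and 7.18 on the iNS3 arrays and 6.72, 6.85, 6.79 and 6.98 on those of iNS5, against 5.71, 5.61 and 5.91 in ES. Each clone array was above each ES array, and the clones were 2.32-fold higher (log2 difference 1.21 ± 0.23, adjusted p = 0.018). Kif23 measured 11.10, 11 and 11.29 on the iNS2 arrays, 11.39, 11.18, 11.39 and 11.08 on the iNS3 arrays and 10.72, 10.87, 10.87 and 10.73 on those of iNS5, against 10.27, 10.03 and 9.64 in ES. Here too the groups did not overlap, and the clones were 2.12-fold higher (adjusted p = 0.03), though with the median over Kif23 probes the difference was 0.08. Ccna2 was at least 1.44-fold brighter in the clones. It had signal on 10 of 11 clone arrays and 0 of 3 ES arrays. Its test (adjusted p = 0.039) thus used ES values not well above background. Anln fell by 1.49 ± 0.24 in the clones (adjusted p = 0.013) and Plk1 fell by 0.94 ± 0.18 (adjusted p = 0.019). Spc24 measured 9.02, 9.01 and 9.11 on the iNS2 arrays, 9.22, 9.11, 9.21 and 9.09 on the iNS3 arrays and 9.06, 9.06, 9.08 and 9.01 on those of iNS5, against 10.10, 10.18 and 10.28 in ES. ES was 2.14-fold higher without overlap (adjusted p = 0.01). Espl1, at -1.42 ± 0.50 (adjusted p = 0.086), and Cenpf, at 1.28 ± 0.39 (adjusted p = 0.061), did not pass, the 3 clones differing more in these. The count was 0 without iNS2 and 9 without iNS5.

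The comparison of the clones with NS asks how far conversion brought these genes to the level of forebrain neural stem cells. The clones as a group passed in 0 of 42 members, where 0.0574% of all genes passed. The differences ran from -0.37 ± 0.31 for Ncapd2 to 0.91 ± 0.35 for Smc2 (adjusted p = 0.88), and with 2 residual degrees of freedom they carry wide errors. Under the 2-fold test, 0 of 42 passed in iNS2, iNS3 and iNS5 against NS, where 2.32%, 2.24% and 3.23% of all genes passed. Likewise 0 passed between iNS2 and iNS3, iNS2 and iNS5, and iNS3 and iNS5, where 0.947%, 2.04% and 3.87% of all genes passed. A count of 0 under this test does not show equal levels, and the smaller differences below were tested in limma against no change.

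Against NS, iNS2 had 8 members higher and 0 lower, where 16.8% of all genes were higher and 17.5% lower. The largest were Smc2, at 0.94 ± 0.28 (adjusted p = 0.014), and Cenpf, at 0.48 ± 0.09. Clone iNS3 had 13 higher and 4 lower, where 25% of all genes were higher and 22.5% lower. Those higher included Ncapg at 1.07 ± 0.27, Kif23 at 0.55 ± 0.11 and Cdc20 at 0.52 ± 0.06 (adjusted p = 4e-07). The 4 lower were Ect2, at -0.68 ± 0.12 (adjusted p = 0.00015), Pttg1, at -0.64 ± 0.12, Mad2l1, at -0.15 ± 0.06, and Cdca8, at -0.14 ± 0.05. Pttg1 measured 6.78, 6.67, 6.81 and 6.79 in iNS3, against 7.45, 7.53 and 7.22 in NS. The groups did not overlap.

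Clone iNS5 had the lowest mean of the 4 neural lines for 27 of 42 members, by margins that moved with the scaling of the arrays. It had 1 member higher than NS, Smc2 at 1.28 ± 0.27 (adjusted p = 0.00053), and 20 lower, where 21.3% of all genes were higher and 26.6% lower. With each array scaled to its median, 5 were lower in iNS5, and within slide 4 also 5. Slide 4 held 1 iNS5 array, so its count rests on fewer arrays than the others. The largest of the 20 were in Espl1, at -0.77 ± 0.09 (adjusted p = 1.7e-06), and in the condensin genes Ncapd2, at -0.75 ± 0.11, and Ncaph, at -0.69 ± 0.09. Bub1b followed, at -0.66 ± 0.07 (adjusted p = 2.6e-07). Ndc80, the kinetochore anchor, measured 9.44, 9.40, 9.46 and 9.50 in iNS5, against 10.02, 9.98 and 10.06 in NS. The groups did not overlap, at a difference of -0.57 ± 0.09. Top2a measured 11.28, 11.15, 11.14 and 11.25 in iNS5, against 11.65, 11.73 and 11.57 in NS. Its difference was -0.44 ± 0.06, again without overlap, but its other measured probe averaged 8.21 in iNS5 and 8.22 in NS. Foxm1 measured 8.90, 8.89, 8.84 and 8.90 in iNS5, against 9.27, 9.27 and 9.27 in NS, a difference of -0.38 ± 0.09. The other 13 lay between -0.40 for Incenp and -0.21 for Plk1.

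Set against the other clones, iNS5 gave like counts. In iNS2, 26 members were higher than in iNS5 (10 with median scaling) and 1 lower, where 24.2% of all genes were higher and 19.3% lower. In iNS3, 27 were higher than in iNS5 (11 with median scaling) and 4 lower, where 33.8% of all genes were higher and 25.8% lower. Espl1 differed by 0.76 ± 0.09 between iNS2 and iNS5 and by 1.16 ± 0.09 between iNS3 and iNS5 (adjusted p = 1.4e-09). For Mad2l1 the brightest probe ran the other way, at -0.20 ± 0.06 and -0.24 ± 0.06, but its other probe, with signal on every array, gave 0.03 and 0.13. In iNS3 against iNS5, Smc2, Ect2 and Pttg1 were lower as well. Between iNS2 and iNS3, 3 were higher and 7 lower, where 16.5% of all genes were higher and 20.1% lower. Ect2, at 0.58 ± 0.12, and Pttg1, at 0.59 ± 0.12, were higher in iNS2, and Bub3, at -0.55 ± 0.09, was lower.

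These smaller differences could depend on the probe. Of the members that passed and had other measured probes, some had at least 1 that ran the opposite way, by any amount. These were 3 of 6 in iNS2 against NS (Cdc20, Kif23 and Nusap1) and 5 of 8 in iNS3 against NS (those 3, Mad2l1 and Ncapg). In iNS5 against NS they were 0 of 7. The share was 1 of 1 between iNS2 and iNS3 (Cdc20) and 4 of 14 between iNS2 and iNS5 (Mad2l1, Cdc20, Kif23 and Cenpa). Between iNS3 and iNS5 it was 7 of 14 (these 4 with Birc5, Cdca8 and Ncapg). Other probes of a gene could agree or lie near 0. Between iNS3 and iNS5, 1 other Cdc20 probe gave -1.66, but further ones gave 0.58 and 0.56. In iNS2 against NS, the other Kif23 probes gave -0.03 and -0.02. In iNS5 against NS, the other Top2a and Cdca8 probes gave -0.0075 and -0.0011, and those of the rest lay between -0.77 and -0.18.

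**Figure D5:**
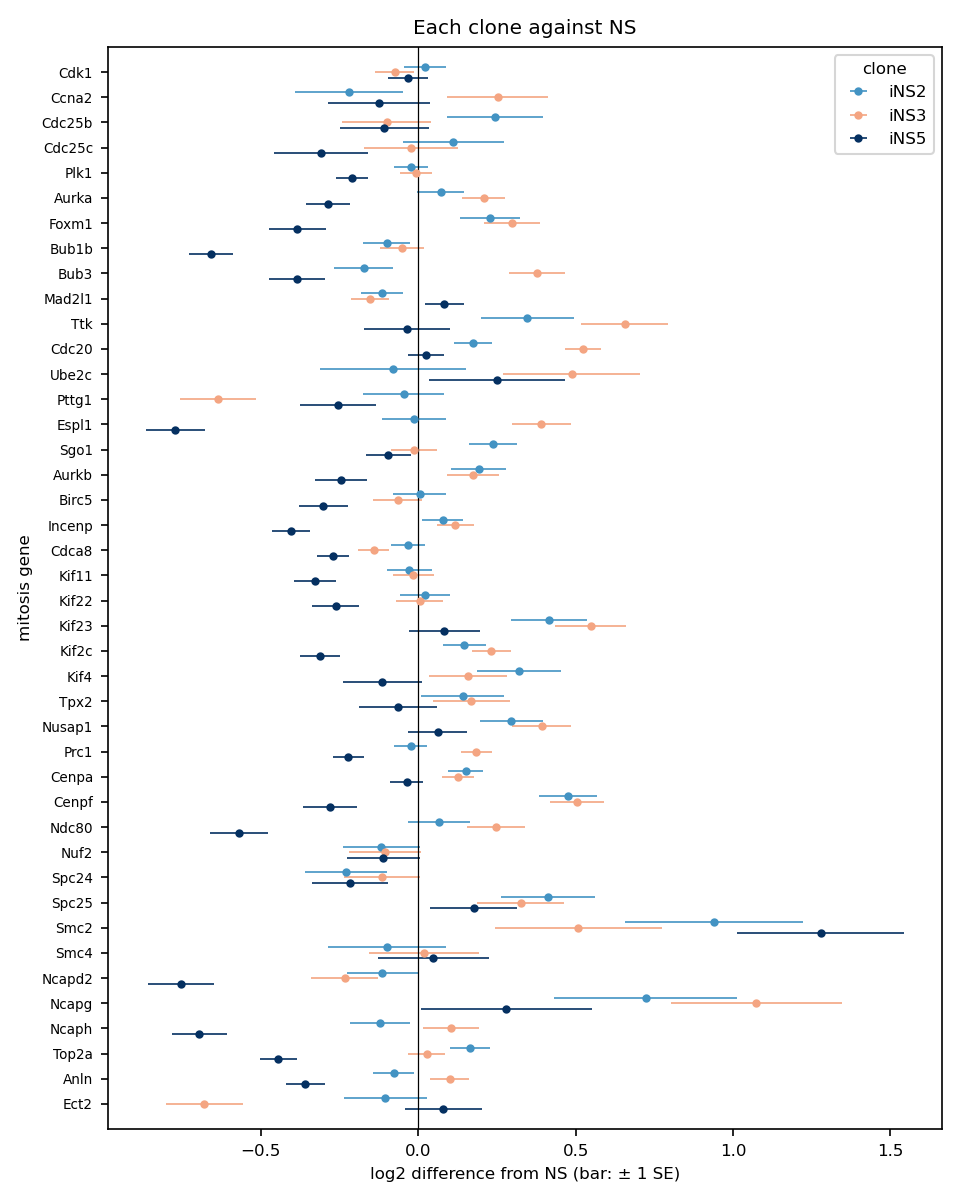
Log2 difference of each clone from NS for the 42 mitosis genes, by role down the page, with bars of ± 1 SE over technical arrays. iNS5 lies left of 0 for 32 of the 42, with its largest negative value of -0.77 for Espl1, and Smc2 lies right of 0 in each clone.

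By line means, iNS5 was the lowest of the neural lines for 64.3% of the members, against 34.4% of all genes, and iNS3 was the highest for 19 (45.2%), against 31.8%. The median difference of iNS5 from NS was -0.22 over the members and -0.03 over all genes. These small shifts moved with the scaling of the arrays. With each array scaled to its median instead of quantile normalisation, the median of all genes itself shifted to 0.12, and that of the members was -0.03. Within slide 4, which held the NS arrays and 1 array each of iNS3 and iNS5, 11 members were higher in iNS3 than in iNS5. The median of iNS5 against NS there was -0.21. iNS2 and iNS5 shared no slide, and with slide as a fixed block 11 were higher in iNS2. The part of slide in these differences was not tested beyond these values. The SD between the 3 clones had a median of 0.244 over the members and 0.198 over all genes.

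Ranked over the 6 lines by their means, ES was highest for 16 members (38.1%, against 31.8% of all genes), iNS3 for 13 (31%, against 12.8%) and iNS2 for 8 (19%, against 6.56%). NS was highest for 3, iNS5 for 2 and MEF for 0, and MEF was lowest for 42, against 32% of all genes. The order among the stem cell lines differed from gene to gene. For the brightest Cdc20 probe it ran from iNS3 through ES, iNS2 and iNS5 to NS, with iNS5 at 12.38, 12.26, 12.50 and 12.31 and NS at 12.36, 12.30 and 12.36. Those neighbours overlapped, and another Cdc20 probe put iNS3 lowest of the stem cell lines, at 8.38. For Sgo1 it ran from ES through iNS2 to NS, iNS3 and iNS5, with NS at 9.42, 9.61 and 9.51 and iNS3 at 9.61, 9.48, 9.43 and 9.49, which also overlapped.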

How the data were processed

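Total RNA of 6 mouse lines was extracted with an RNeasy kit and labelled as biotinylated cRNA with MessageAmp, per the labels' protocols. The authors deposited scanner intensities, the mean bead signal of each probe on a linear scale with background included. Per the file headers, further columns hold the detection p-value, the number of beads (a count, 17 to 79 for the member probes that passed) and the bead standard error, deposited as a signal and 3.69% of the intensity at the median. A scaled intensity table that the authors deposited served as an alternative. The submitters' processing notes name GenomeStudio, with no version given in the sources used here. Among the 45281 probes, 1 symbol was given for 34885, several for 18 and none for 10378. RefSeq held the gene identifier of 34807, with 0 changes of symbol.

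The neqc function of limma 3.58.1 (R 4.3.3, offset 16, controls inferred from detection p-values) corrected background, quantile normalised the arrays and gave log2 values. Probes with 1 symbol and a detection p-value under 0.01 on every array of at least 1 line gave 15972 probes, 101 of all probes and 73 of these being members', and the probe brightest over all arrays stood for its gene. A gene counts as without signal where that probe was not well above background. The 21 arrays were fitted with 6 groups and 15 residual degrees of freedom, and tested by treat, with a 2-fold change as the null, or by eBayes against no change for smaller differences. Clones as a group were tested with eBayes on line means. All tests were two-sided and adjusted over 10449 genes. The scripts were tested on simulated arrays. Precision is limited by the number of arrays and clones.

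Members, lists and tests were chosen with earlier results of these data known. Named were the largest and smallest difference of each role against MEF and members that did not pass. Alternatives changed the offset, scaling, filter, probe, slide, source table, test and the arrays or clones used, and those on iNS5 against no change were added after seeing the data. Promoters came from RefSeq GRCm38.p6 and motifs were searched on both strands, overlaps allowed, with Python 3.11.15 and pandas 2.3.3. Figures used matplotlib 3.10.9.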

Additional observations from a re-analysis of the deposited data

Results flagged for a closer look

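Neural and embryonic stem cells were both set against MEF, so a member whose difference from MEF was tested to differ between them was marked. Between NS and ES these were Anln (NS minus ES -1.38) and Espl1 (-1.29). Between the clones and ES they were Anln (clones minus ES -1.49), Ccna2 (1.0, at least 1.44-fold, with no ES array showing signal), Cdc25b (1.21), Kif23 (1.08), Plk1 (-0.94) and Spc24 (-1.10). Anln, of the contractile ring, stood on both lists and was lower on each of the 11 clone arrays and 3 NS arrays than on any of the 3 ES arrays. Single arrays far from the rest of their line were sought for the 42 members in MEF, iNS3 and iNS5, the 3 lines with 4 arrays, which makes 126 groups, and lines of 3 arrays were not searched. Chance marks about 1 in 20 such groups, and 5 were marked. Tpx2 measured 9.01 on iNS5 replicate 1, against 9.19 to 9.22 on the other iNS5 arrays, and Foxm1 measured 8.84 on iNS5 replicate 3, against 8.89 to 8.90. Ndc80 measured 10.37 on iNS3 replicate 2, against 10.22 to 10.25, and Top2a 11.72 on iNS3 replicate 1, against 11.66 on the others. Cdk1 measured 8.86 on MEF replicate 3, against 8.84 to 8.85.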

How the results depend on the processing

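Of 260 repeats of the counts of members under other settings, 241 stayed within 1.5 times. Of 563 repeats for single members, 518 kept direction and side of the threshold, 24 no longer passed, 21 newly passed and 0 reversed. The single-member repeats covered NS, ES and the clones as a group against MEF, and NS and the clones against ES. Differences among the neural lines were not repeated for single members. The NS to ES count of 2 was 1 with median scaling, 1 in the authors' scaled table and 30 against no change. Against no change the counts of 0 became 8 (iNS2 and NS), 17 (iNS3 and NS), 21 (iNS5 and NS), 10 (iNS2 and iNS3), 27 (iNS2 and iNS5) and 31 (iNS3 and iNS5). The clones to ES count of 6 was 3 when all arrays were fitted with a 2-fold test. Members lower in iNS5 than in NS, 20 as given, were 5 with median scaling and 5 within slide 4. Those lower in iNS5 than in iNS2, 26 as given, were 10 with median scaling and 11 with slide as a fixed block. Those lower in iNS5 than in iNS3, 27 as given, were 11 with median scaling, 17 with slide as a fixed block and 11 within slide 4. Slide 4 held 1 iNS5 array, so its counts rest on fewer arrays than the others. The cause was not tested. The correlation of arrays on a slide was estimated at 0.0341.

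Leaving out each array in turn gave 37 to 38 members for iNS2 against MEF, 39 to 40 for iNS3, 37 to 38 for iNS5, 36 to 38 for NS, 36 to 37 for ES, and 1 to 2 for NS against ES. Leaving out each clone gave 36 (without iNS2) to 42 (without iNS3) against MEF, 0 (without iNS2) to 9 (without iNS5) against ES and 0 against NS. The counts lower in iNS5 were 18 to 20 against NS, 23 to 26 against iNS2 and 25 to 28 against iNS3. The clones against NS and the pairs of neural lines stayed at 0 under the 2-fold test. No paired analysis was possible because the labels number no replicates across lines. For 11 members without signal on any MEF array, folds are lower bounds, and their tests used MEF values not well above background.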

Other observations

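Beyond the 42 members, 3 of 15 regulators of mitotic promoters were higher in NS than in ES, 3 were lower and 9 did not pass. Their median was -0.09. Both shares lay near those of all genes, of which 16.6% were higher and 15.2% lower. Mybl2, the B-Myb gene, was 68.5-fold higher in ES than in MEF, and NS lay -2.97 on the log2 scale from ES (SE 0.06, adjusted p = 2.2e-16, limma 2-fold test). E2f4, at -2.13 ± 0.13, and Nfyb, an NF-Y subunit that binds CCAAT, at -2.02 ± 0.07, were lower in NS as well. Rb1, the retinoblastoma gene, at 1.39 ± 0.07, its relative Rbl1, at 1.46 ± 0.10, and E2f6, at 1.25 ± 0.06, were higher in NS. Of the 87 other mitotic genes, 6 were higher in NS than in ES and 8 lower, and 11 were higher and 16 lower in the clones than in ES, where 21.5% of all genes were higher and 22.5% lower. Each of these 4 counts is a smaller share than that of all genes. Between iNS3 and iNS5, E2f4 was higher in iNS3, at 1.37 ± 0.11 (adjusted p = 0.046), and Oip5, a loader of centromeric histone, was lower, at -1.30 ± 0.08 (adjusted p = 0.029), under the 2-fold test.

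Some members had several probes. Of the 73 member probes that passed, 60 were higher in NS than in MEF and 1 was lower. The lower one was 1 of the passing probes of Kif23, annotated to a different transcript, which averaged 8.37 in NS and 10.47 in MEF (difference -2.10), while its other passing probes gave 3.08 and 3.28. Of 21 members with 2 or more passing probes, 20 had all probes positive. Calls differed between probes for 6: Anln, Cdk1, Cenpf, Kif23, Nusap1 and Smc4. For Cdk1 the bright probe gave 3.00, and the others had signal on no MEF array and on 0 and 1 of 3 NS arrays.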
